A study of Homo sapiens with 8 samples.

Results

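The immediate early transcription factors described here are 10 genes, FOS, FOSB, FOSL1, JUN, JUNB, EGR1, EGR3, ATF3, IER2 and NR4A1, out of 63241 gene rows in the deposited count table, of which 62666 had a gene symbol. They were chosen by their level in a single library, the third of 4 libraries labelled control, so that level is given below as a description and carries no test. The series holds 8 human RNA-seq libraries labelled as HSC3, an established line from an oral squamous cell carcinoma, and its title asks about COL1A1 knockdown and the migration and invasion of such cells. By their labels, 4 libraries (knockdown 1 to 4) received an siRNA against COL1A1 and 4 (control 1 to 4) a non-targeting siRNA. Every library received 100 pmol of siRNA with a lipid transfection reagent and was collected 48 hours later. The labels do not say that libraries of 1 label came from separate cultures, so every p-value below measures only the spread between these libraries. In bulk RNA, more cells of one type and more RNA per cell cannot be told apart.

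Immediate early genes are switched on within minutes of a stimulus such as serum, a growth factor, wounding or handling of cells, without new protein synthesis. Kinase cascades act on factors already bound at their promoters, chiefly serum response factor with its ternary complex partners at CArG boxes and CREB at cAMP response elements (CRE). Their transcripts are unstable, so that levels usually fall again soon after the stimulus. FOS and JUN proteins pair to form AP-1, which in squamous epithelium drives genes of differentiation, migration and matrix breakdown.

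The 250 bases before the RefSeq start sites of FOS, FOSB, EGR1 and JUN are shown because these 4 members had the most counts in control 3 and because the members were chosen for standing high together in that library. Sequences and coordinates are from RefSeq on GRCh38.p14, read 5′ to 3′ on the gene's strand. Capitals mark the CRE core TGACG on either strand (read as CGTCA on the other) and CArG boxes. FOS has a single core 64 bases before its start (chr14:75278578-75278827, plus strand).
FOS: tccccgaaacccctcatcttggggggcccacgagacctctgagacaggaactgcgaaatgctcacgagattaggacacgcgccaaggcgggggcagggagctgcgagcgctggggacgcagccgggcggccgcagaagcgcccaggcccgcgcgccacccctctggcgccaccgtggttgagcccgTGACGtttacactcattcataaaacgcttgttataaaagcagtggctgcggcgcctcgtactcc
FOSB carries a core at nearly the same distance, 60 bases before its start (chr19:45467746-45467995, plus strand).
FOSB: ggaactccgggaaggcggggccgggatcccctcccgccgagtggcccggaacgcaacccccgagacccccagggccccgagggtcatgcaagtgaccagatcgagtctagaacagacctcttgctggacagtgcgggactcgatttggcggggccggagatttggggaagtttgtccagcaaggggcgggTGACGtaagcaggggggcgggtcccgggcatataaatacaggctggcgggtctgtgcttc
EGR1 has 2 cores and, between them, 2 CArG boxes that begin 105 and 83 bases before its start (chr5:138465229-138465478, plus strand).
EGR1: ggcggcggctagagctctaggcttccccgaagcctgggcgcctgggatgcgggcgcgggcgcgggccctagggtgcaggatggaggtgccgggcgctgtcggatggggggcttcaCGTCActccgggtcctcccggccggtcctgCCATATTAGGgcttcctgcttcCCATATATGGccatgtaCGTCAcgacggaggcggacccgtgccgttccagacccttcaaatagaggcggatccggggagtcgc
JUN has a core 123 bases before its start (chr1:58784048-58784297, minus strand).
JUN: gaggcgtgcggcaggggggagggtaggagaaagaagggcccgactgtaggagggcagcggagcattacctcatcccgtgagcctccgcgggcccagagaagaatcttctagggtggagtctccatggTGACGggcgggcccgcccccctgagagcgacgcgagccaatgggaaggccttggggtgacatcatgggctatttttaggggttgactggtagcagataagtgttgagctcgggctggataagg

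The search covered 10 windows of 8 members, since ATF3 and NR4A1 have 2 each. FOSL1 and EGR3 were not searched and are named only. The core TGACG was present in 6 of the 10 windows, those of FOS, FOSB, EGR1, JUN, JUNB and IER2, against 21.2% of all 35116 promoter windows of this length. JUNB and IER2 have theirs 137 and 140 bases before the start. The full CRE, TGACGTCA, which contains the core, was in 0 member windows and 1.65% of all. The AP-1 site TGANTCA was in 0 member windows and 6.57% of all, and a CArG box in 1 member window, that of EGR1, and 1.16% of all. Both strands were searched; a match describes letters in these windows and a missing match says nothing about the factor.

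Total counts ran from 30684584 to 61795990 per library. COL1A1, the siRNA target, stood at 368, 123, 301 and 155 CPM (read counts of the gene per 1000000 counts of the library) in knockdown 1 to 4 and at 89.0, 8183, 476 and 690 CPM in control 1 to 4. The lowest level of the target was therefore in control 1, a library labelled control, and groups are named by their labels throughout. A list of 8 squamous markers, keratins among them, summed to 109100 CPM in knockdown 1 but to 1550 CPM in knockdown 2 and 654 CPM in control 1, and to 9160 CPM in control 3. In knockdown 2, KRT6A stood at 67.6 CPM and KRT5 at 274 CPM, against 42480 and 19770 CPM in knockdown 1. In the same library KRT14 was at 531 CPM and CDH1 at 346 CPM, while EPCAM, at 89.8 CPM in knockdown 2, was the highest of the 8 libraries. Skeletal muscle markers took 12.8% of counts in both control 1 and control 3, 3.38% in knockdown 2, 4.02% in knockdown 4, 0.333% in control 2 and at most 0.00358% in the other 3 libraries. Salivary gland markers summed to 113700 CPM in control 1, to 77650 CPM in knockdown 2 and to at most 6.22 CPM elsewhere.

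FOS (ENSG00000170345.10, chr14:75278828-75282230), the founding partner of JUN in AP-1, stood at 477, 153, 98.9 and 715 CPM in knockdown 1 to 4. Its levels in control 1 to 4 were 31.3, 332, 3818 and 66.5 CPM. Control 3 was the highest library and knockdown 4 the next, while the other 3 controls lay within the span of the knockdown libraries or below it. Control 3 stood 57.4-fold above the median of the other 3 controls and 5.34-fold above knockdown 4.

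FOSB (ENSG00000125740.15, chr19:45467996-45475179), a close relative of FOS whose transcript is also made on stimulation, stood at 157, 31.6, 20.4 and 402 CPM in knockdown 1 to 4. In control 1 to 4 it stood at 6.74, 65.0, 3994 and 5.04 CPM. The gap was wider than for FOS: control 3 lay 592-fold above the median of the other 3 controls and 9.95-fold above knockdown 4, the next highest. Exons of FOSB overlap ERCC1 on the other strand, and the counting's strand setting is not given in the sources used here; ERCC1, a DNA repair gene, ranged from 31.8 to 52.5 CPM and stood at 33.7 CPM in control 3.

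FOSL1 (ENSG00000175592.9, chr11:65892049-65900545) encodes FRA1, an AP-1 partner that usually follows FOS and is known from invasive squamous cells. It stood at 30.5, 0, 19.1 and 12.2 CPM in knockdown 1 to 4, and at 0.462, 8.59, 54.2 and 1.98 CPM in control 1 to 4. The 0 counts of knockdown 2 allow a level of up to 0.0978 CPM, and control 1 held 17 counts; these are also the libraries in which the squamous markers were lowest. Control 3 was 27.4-fold above the median of the other 3 controls, but only 1.78-fold above knockdown 1.

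JUN (ENSG00000177606.9, chr1:58780791-58784047), the DNA-binding partner shared by FOS proteins, stood at 285, 115, 136 and 413 CPM in knockdown 1 to 4 and at 99.1, 232, 926 and 99.4 CPM in control 1 to 4. The levels in control 1 and control 4 differed by less than their 95% Poisson intervals, which cover counting error only. Outside control 3 its highest and lowest libraries were 4.17-fold apart, the tightest of the 10 members after EGR3. Control 3 was 9.32-fold above the median of the other 3 controls and 2.24-fold above knockdown 4.

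JUNB (ENSG00000171223.6, chr19:12791486-12793315), a JUN relative that can dampen JUN's activity, stood at 226, 25.5, 182 and 256 CPM in knockdown 1 to 4. In control 1 to 4 it stood at 15.5, 127, 476 and 60.6 CPM. Its low libraries were control 1 and knockdown 2, as for FOSL1, and control 3 exceeded knockdown 4 by 1.86-fold. HOOK2, which overlaps JUNB on the other strand, ranged from 21.4 to 32.1 CPM, with 26.1 CPM in control 3.

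EGR1 (ENSG00000120738.8, chr5:138465479-138469303), a zinc finger factor of the growth factor response, stood at 181, 51.3, 73.4 and 488 CPM in knockdown 1 to 4 and at 20.1, 195, 1697 and 41.5 CPM in control 1 to 4. Control 3 was 40.9-fold above the median of the other 3 controls and 3.47-fold above knockdown 4, and the order of the 4 knockdown libraries differed from that of FOS only in knockdown 2 and 3.

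EGR3 (ENSG00000179388.9) is a relative that EGR1-type signals induce slightly later. It stood at 7.81, 2.77, 3.95 and 2.96 CPM in knockdown 1 to 4 and at 2.42, 7.91, 54.0 and 5.52 CPM in control 1 to 4. The 7 libraries other than control 3 lay within 3.27-fold of each other, and knockdown 4, high for FOS and EGR1, was among the low ones here. Control 3 stood 6.82-fold above control 2, the next highest.

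ATF3 (ENSG00000162772.18, chr1:212565407-212620777), a stress-induced factor of the ATF/CREB family that pairs with JUN, stood at 13.3, 13.2, 8.45 and 42.1 CPM in knockdown 1 to 4. In control 1 to 4 it stood at 8.26, 20.9, 532 and 6.58 CPM. Of the 10 members it had the widest gap between control 3 and the next library, 12.6-fold above knockdown 4.

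IER2 (ENSG00000160888.7, chr19:13150411-13154911), a nuclear protein induced with FOS, stood at 87.3, 16.7, 43.1 and 101 CPM in knockdown 1 to 4 and at 12.3, 36.7, 157 and 17.7 CPM in control 1 to 4. It had the narrowest gap, with control 3 1.56-fold above knockdown 4.

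NR4A1 (ENSG00000123358.20, chr12:52022832-52059503), an orphan nuclear receptor induced by growth factors and, in muscle, by contraction and adrenergic signals, stood at 6.53, 82.5, 3.81 and 31.4 CPM in knockdown 1 to 4. In control 1 to 4 it stood at 43.0, 12.3, 467 and 2.44 CPM. Its order outside control 3 differed from that of the FOS and JUN genes: the high libraries were knockdown 2, control 1 and knockdown 4, the other 3 libraries with over 1% of counts from muscle markers. Of these, knockdown 2 and control 1 also held salivary gland markers, at 77650 and 113700 CPM, against 6.22 CPM in knockdown 4. The part of muscle or gland cells in the NR4A1 level was not tested. Exons of EGR3, IER2 and NR4A1 each overlap a noncoding gene on the other strand, whose reads cannot be told apart from theirs here.

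**Figure D1:**
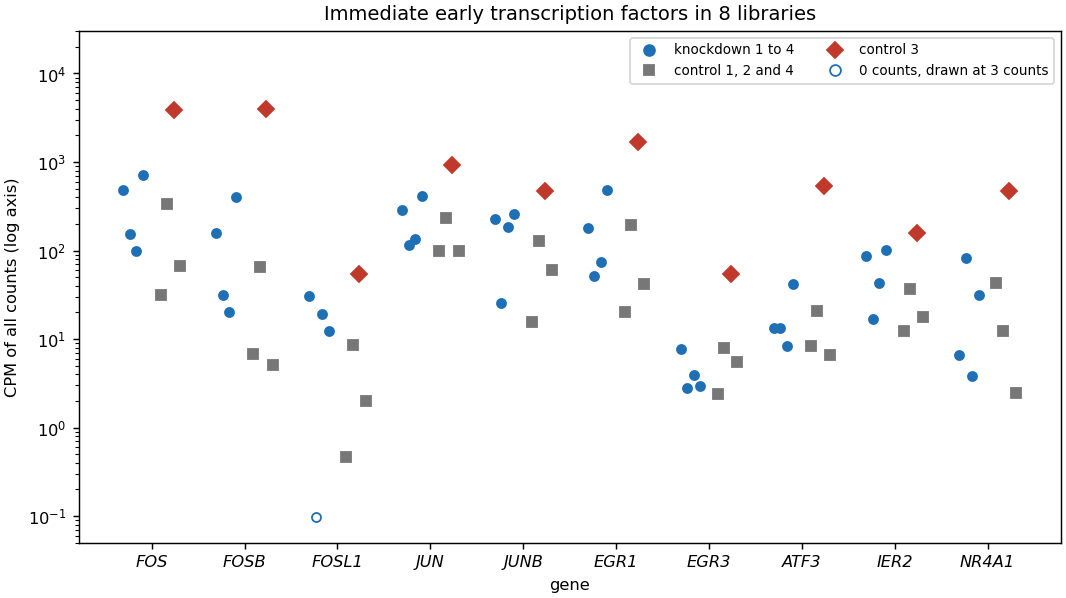
CPM of all counts (log axis) for the 10 members, 1 point per library: circles are knockdown 1 to 4, squares control 1, 2 and 4, diamonds control 3, and the open circle is FOSL1 in knockdown 2 with 0 counts, drawn at 3 counts. Control 3 is the top point for every member, from 54.0 CPM for EGR3 to 3994 CPM for FOSB.

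Levels of different genes were compared per kilobase of merged GENCODE v29 exons. In control 3 the order was FOS at 1179 CPM per kb, FOSB at 719, EGR1 at 541, JUN at 262, JUNB at 261, ATF3 at 132, NR4A1 at 64.1, IER2 at 51.2, FOSL1 at 28.8 and EGR3 at 11.1. JUN and JUNB did not differ beyond counting error. The order depends on the lengths used: by CPM alone FOSB, at 3994 CPM, stood above FOS, at 3818 CPM. Their merged exons covered 5553 and 3238 bases. All 10 members together took 1.22% of the counts of control 3. In knockdown 1 to 4 their shares were 0.147%, 0.0491%, 0.0589% and 0.246%, and in control 1, 2 and 4 they were 0.0239%, 0.104% and 0.0307%.

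Control 3 was the highest of 8 libraries for 10 of 10 members; it was the highest for 19.2% of the 21192 genes tested, and since the rule used this library nothing is read from the count. It stood at least 4-fold above the median of the other 3 controls for 10 of 10 members, against 11.8% of all genes. It stood at least 4-fold above the highest of the other 7 libraries for 5 members (FOS, FOSB, EGR3, ATF3 and NR4A1), against 0.547% of all genes, and again nothing is read from it. The median log2 ratio of control 3 to the median of the other 3 controls was 5.01 for the members and 0.18 for all genes tested. Leaving out 1 of the other 3 controls moved the ratio to their median from 111-fold (without control 4) to 678-fold (without control 2) for FOSB, and from 19.2-fold (without control 1) to 78.1-fold (without control 2) for FOS. For JUN it ran from 5.59-fold to 9.33-fold, and for every member it stayed above 4-fold. On either side of the 4-fold line over the highest other library stood FOS, at 5.34-fold, and EGR1, at 3.47-fold.

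**Figure D2:**
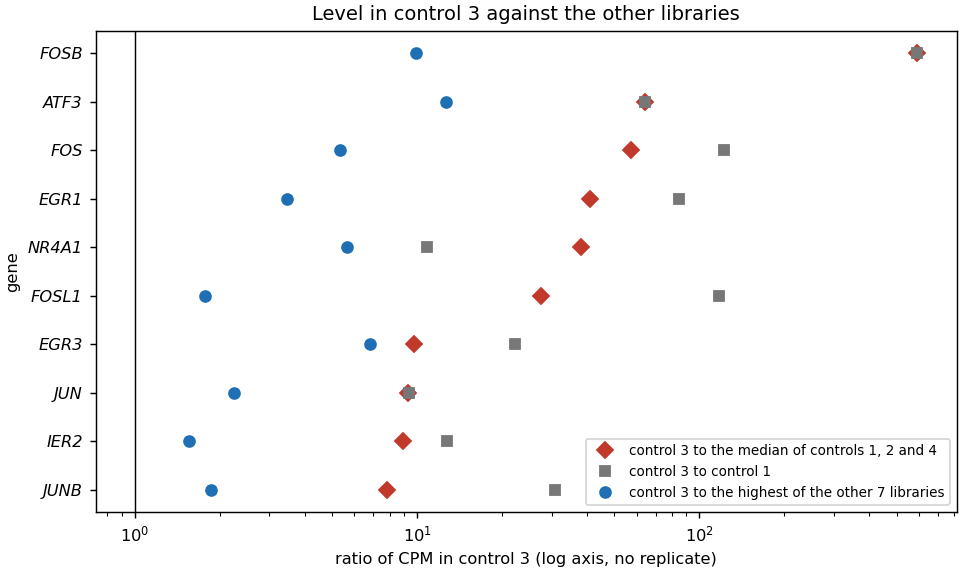
Ratio of CPM in control 3 (log axis, no replicate) to the median of control 1, 2 and 4 (diamonds), to control 1 (squares) and to the highest of the other 7 libraries (circles), for each member. Against the other controls the ratios run from 7.85-fold for JUNB to 592-fold for FOSB, and against the highest other library from 1.56-fold for IER2 to 12.6-fold for ATF3.

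A high level in control 3 is judged against the other 7 libraries, so the choice of members bears on those too. Among them, knockdown 4 was the highest for 7 of 10 members, while it was the highest for 12.1% of all genes. The exceptions were FOSL1, highest in knockdown 1, EGR3, highest in control 2, and NR4A1, highest in knockdown 2. Control 1 was the lowest of the 7 for 6 members (FOS, JUN, JUNB, EGR1, EGR3 and IER2), where it was the lowest for 26.0% of all genes. Control 4 was the lowest for FOSB, ATF3 and NR4A1, and knockdown 2 for FOSL1. Control 1 and control 3, whose muscle marker shares were both 12.8%, thus stood at opposite ends for most members: FOS was 122-fold, EGR1 84.5-fold and JUN 9.35-fold higher in control 3 than in control 1. These libraries were not matched otherwise: salivary gland markers summed to 113700 CPM in control 1 and to 3.29 CPM in control 3.

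The make-up of the families also differed in control 3. The ratio of FOSB counts to FOS counts was 1.05 in control 3 and ran from 0.0758 in control 4 to 0.562 in knockdown 4 in the others. FOSL2, the family member with the narrowest range of levels, stood at 555 CPM in control 3 and from 96.9 to 621 CPM elsewhere. It made up 6.59% of the counts of the FOS family (FOS, FOSB, FOSL1 and FOSL2) in control 3 and from 35.3% to 86.7% in the other libraries. In the JUN family the shift was smaller: JUND, mostly a constitutive member, made up 8.87% of JUN, JUNB and JUND counts in control 3 and from 7.49% to 23.8% elsewhere. ATF3 counts were 0.574 of JUN counts in control 3 and from 0.0464 to 0.116 of them elsewhere. The ratio of NR4A1 to EGR1 was above 1 in knockdown 2, at 1.61, and in control 1, at 2.14. It was 0.275 in control 3 and from 0.0360 to 0.0644 in the other 5 libraries. The members in these ratios were chosen by their level in control 3, so the ratios are descriptions of single libraries.

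**Figure D3:**
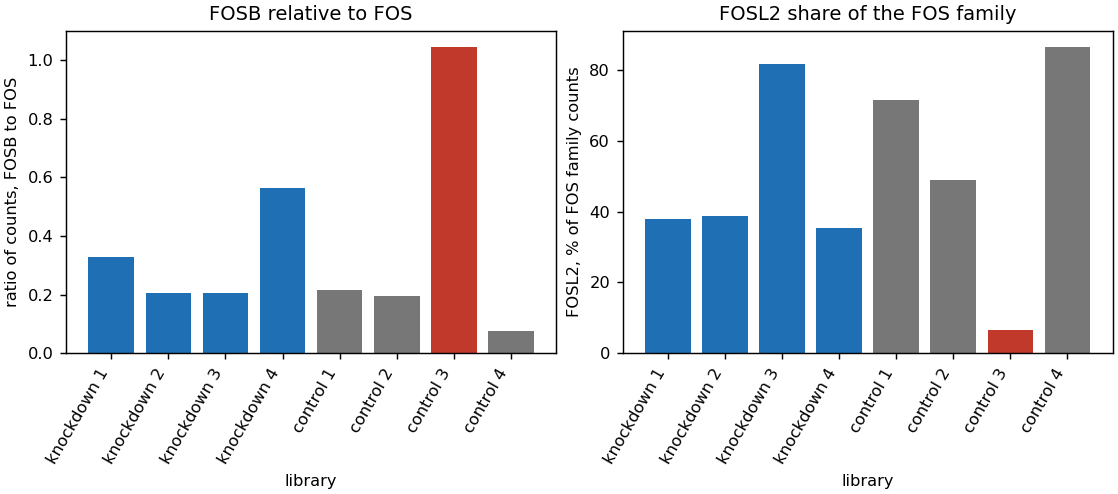
The left panel shows the ratio of FOSB to FOS counts and the right panel the percentage of FOS family counts from FOSL2, 1 bar per library. Control 3 has the highest FOSB to FOS ratio, 1.05, and the lowest FOSL2 share, 6.59%.

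Beside the members, 6 lists of related genes are given by the same measure, the log2 ratio of control 3 to the median of the other 3 controls. Of 16 tested relatives in the AP-1, EGR and NR4A families, 7 were highest in control 3 and 5 stood at least 4-fold above the other controls; the median ratio was 0.52. EGR2 stood at 49.5 CPM in control 3 and at most 11.3 CPM elsewhere, and NR4A2 at 132 CPM against at most 28.0 CPM. ATF4, the most abundant relative after FOSL2, stood at 189 CPM in control 3, inside the span of the other libraries (117 to 274 CPM).

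Other early transcription factors numbered 22, of which 11 were highest in control 3 and 5 at least 4-fold higher, with a median of 1.18. KLF6, a Krüppel-like tumour suppressor, stood at 783 CPM against 66.1 to 248 CPM elsewhere. BHLHE40, a hypoxia and clock-linked repressor, stood at 547 CPM against 32.7 to 368 CPM, and MYC at 466 CPM against 15.1 to 218 CPM.

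Feedback and mRNA decay genes, which shut the response off, numbered 27; 14 were highest in control 3 and 10 at least 4-fold higher, with a median of 1.57. DUSP1, a phosphatase of MAP kinases, stood at 1324 CPM against 37.5 to 526 CPM elsewhere. BTG2, an antiproliferative gene, stood at 963 CPM against 72.0 to 140 CPM, the latter in control 4. ZFP36L1, which promotes decay of AU-rich transcripts, stood at 756 CPM against 107 to 481 CPM.

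Other early response genes, mostly secreted or survival proteins, numbered 28; 16 were highest in control 3 and 13 at least 4-fold higher, with a median of 1.91. MCL1, a survival protein, stood at 906 CPM against 128 to 404 CPM elsewhere, and the kinase SGK1 at 572 CPM against 37.7 to 394 CPM. THBS1, a matrix protein, stood at 107 CPM in control 3, inside the span of 30.6 to 758 CPM elsewhere. IL6, a cytokine singled out after its values were seen, stood at 22.7 CPM in control 3 and at 0 to 1.08 CPM elsewhere.

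Upstream kinases and the SRF, TCF and CREB factors differed by measure: 10 of 23 were highest in control 3, against 19.2% of all genes, but 1 was at least 4-fold higher and the median was 0.16, near the 0.18 of all genes. The SRF partner ELK4 stood at 155 CPM against 57.1 to 144 CPM elsewhere. MAP2K2, a kinase of the same cascades, stood at 71.0 CPM, the lowest of the 8 libraries. Of 14 heat shock genes, 4 were highest in control 3 and 0 at least 4-fold higher, with a median of 0.29. HSP90AB1, HSPA8 and HSP90AA1, the most abundant chaperones, were all highest in control 4, at 1557, 1539 and 2460 CPM.

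**Figure D4:**
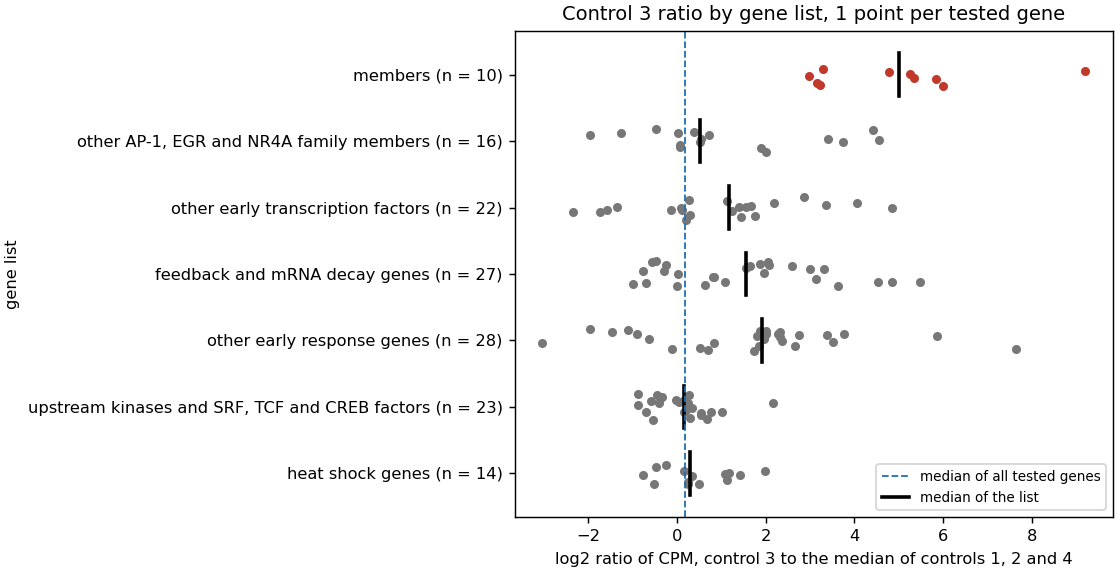
Log2 ratio of CPM in control 3 to the median of control 1, 2 and 4, 1 point per tested gene, for the members and 6 related lists; black bars are list medians and the dashed line is the median of all genes tested, 0.18. The members' median is 5.01 and that of the upstream kinases and factors 0.16.

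Markers of other cell types moved with some of these libraries. Skeletal muscle markers summed to 24.1 to 40230 CPM in the knockdown libraries, to 25.8 to 128400 CPM in control 1, 2 and 4 and to 127700 CPM in control 3, and 3 of 8 were highest in control 3. Fibroblast markers summed to 201 to 636 CPM, to 524 to 5605 CPM and to 2197 CPM in the same order, and 3 of 5 were highest in control 3, with DCN at 1271 CPM. The most abundant of that list, COL3A1, stood at 476 CPM in control 3 and 5116 CPM in control 2, and PDGFRB was also highest in control 2. Adipocyte markers summed to 11.0 to 59.5 CPM, to 25.8 to 241 CPM and to 166 CPM, and 2 of 3 were highest in control 3: PLIN1 stood at 104 CPM there against at most 20.8 CPM elsewhere, and ADIPOQ at 36.3 CPM against at most 20.8 CPM. FABP4, the most abundant of the adipocyte markers, stood lower there, at 25.6 CPM, than in control 2 and control 4, at 124 and 241 CPM. Neutrophil markers summed to 3.49 to 50.8 CPM, to 4.52 to 23.3 CPM and to 23.5 CPM in the same order, and 2 of 3 were highest in control 3. S100A12, the most abundant of them, stood at 0.868 CPM in control 3 and at 48.0 CPM in knockdown 3. By the ratio of control 3 to the median of the other 3 controls, the median log2 value was 5.04 for muscle markers (7 of 8 at least 4-fold higher), 5.22 for adipocyte markers (2 of 3) and 3.42 for Schwann cell markers (3 of 3), beside the members' 5.01. It was 2.84 for neutrophil markers (2 of 3), 1.67 for fibroblast markers (2 of 5) and 1.34 for salivary gland markers (1 of 4). For squamous, endothelial, smooth muscle and leukocyte markers it was -1.87, 0.19, -2.66 and -0.20, with 0 at least 4-fold higher. No tested squamous (8), endothelial (5), smooth muscle (3), leukocyte (5), Schwann cell (3) or salivary gland (4) marker was highest in control 3. There the leukocyte marker CD68 and the salivary markers LPO and AMY1A had 0 counts, and none of these passed the filter on low counts. The part of other cells in the level of the members was not tested. Control 1 held as much muscle marker RNA as control 3, with the lowest share of member counts of the 8 libraries. It also held 113700 CPM of salivary gland markers, against 3.29 CPM in control 3.

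In edgeR, the fitted change between the labels had the opposite sign with and without control 3 for 6 of 10 members (FOS, FOSB, JUN, EGR1, ATF3 and NR4A1) and the same sign for FOSL1, JUNB, EGR3 and IER2. All 10 members passed the filter on low counts with and without that library. In the fit of all 8 libraries, 0 of 21192 genes passed an adjusted p of 0.05 in edgeR's quasi-likelihood test (1013 at an unadjusted p under 0.05; 127 in DESeq2), so the share called was 0.0% of all genes and 0 of 10 members. Fitted log2 fold changes of knockdown over control ran from -2.61 (SE 1.35) for ATF3 to 0.47 (SE 0.82) for IER2, with 3 of 10 members on the higher side and a median of -1.14, against -0.05 for all genes. In limma-voom the median in 8 libraries was 0.18, with 6 of 10 members on the higher side. These fold changes rest on the library the members were chosen by and are descriptions.

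Without control 3, 4 libraries labelled knockdown were compared with 3 labelled control. Again 0 of 22142 genes passed in edgeR (1114 at an unadjusted p under 0.05; 186 in DESeq2 and 0 in limma-voom), which is 0.0% of all genes and 0 of 10 members. The fitted values of 9 of 10 members were on the side of higher levels in knockdown, with a median log2 fold change of 1.43, against -0.03 for all genes. Choosing members that stand high in control 3 against the other controls can favour low values in those controls, so this direction is a description. FOSB stood at 152 ± 177 CPM (SD, n = 4) in knockdown and 25.6 ± 34.1 CPM (SD, n = 3) in the remaining controls; its log2 fold change was 2.71 (SE 1.31, edgeR adjusted p = 0.975). FOS stood at 361 ± 289 CPM (SD, n = 4) and 143 ± 165 CPM (SD, n = 3), a log2 fold change of 1.50 (SE 0.96, edgeR adjusted p = 0.982). IER2 stood at 62 ± 39.1 CPM (SD, n = 4) and 22.2 ± 12.8 CPM (SD, n = 3), a log2 fold change of 1.67 (SE 0.69, edgeR adjusted p = 0.975). It was the only member with an unadjusted p under 0.05 in edgeR, at 0.0417. Leaving out 1 more library moved the log2 fold change of FOSB from 1.80 (without knockdown 4) to 4.65 (without control 2) and that of FOS from 1.03 (without control 1) to 2.94 (without control 2). Over the 10 members the median was lowest without knockdown 4, at 0.87, and highest without control 2, at 2.26, and 0 members passed in any of these fits.

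Fitted values of the other members without control 3 were 2.42 (SE 1.76) for FOSL1, 1.62 (SE 0.92) for JUNB, 1.37 (SE 0.98) for EGR1 and 0.87 (SE 0.58) for JUN. They were 0.77 (SE 0.62) for ATF3, 0.47 (SE 1.18) for NR4A1 and -0.03 (SE 0.63) for EGR3. For 0 of 10 members did the knockdown libraries separate from control 1, 2 and 4, while they did for 4.77% of the 22142 genes tested. Within each label the spread was wide: knockdown 4 and knockdown 3 differed more for FOS, at 715 and 98.9 CPM, than did the means of the labels. In the related lists, 0 genes passed in either fit. Without control 3, the median log2 fold change was 0.46 over 27 feedback and mRNA decay genes (19 fitted higher), 0.33 over 28 other early response genes (18 higher) and 0.15 over 22 other early transcription factors (12 higher). It was -0.02 over 16 relatives of the members (7 higher), -0.18 over 23 upstream kinases and factors (7 higher) and -0.11 over 14 heat shock genes (6 higher).

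**Figure D5:**
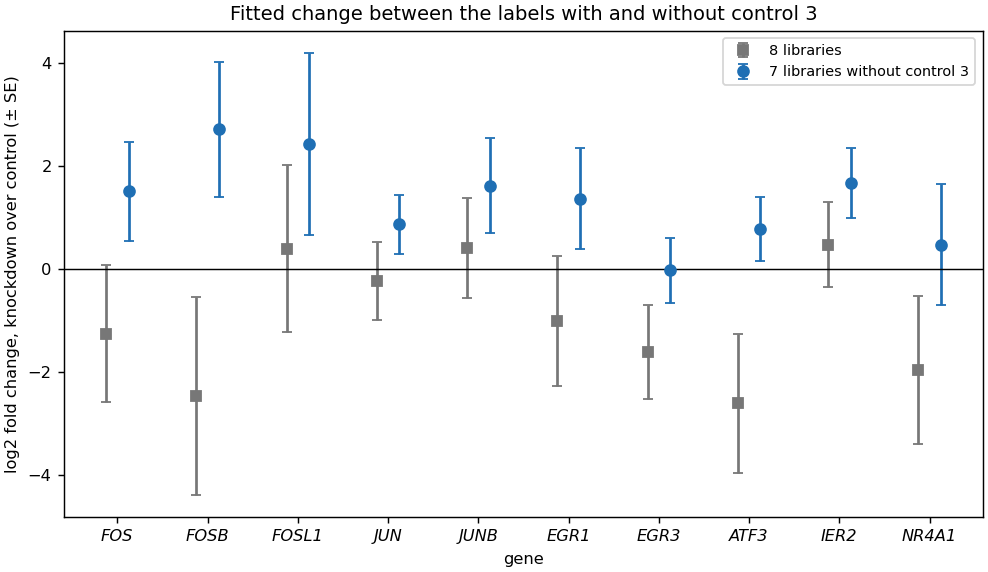
Fitted log2 fold change of knockdown over control with its standard error for each member, in 8 libraries (squares) and in the 7 libraries without control 3 (circles). With control 3 the values run from -2.61 to 0.47, and without it from -0.03 to 2.71, and no member passed the test in either fit.

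When the 4 libraries with over 1% of counts from muscle markers were left out, an alternative added after the data had been seen, 0 of 10 members were called in the remaining comparison of knockdown 1 and 3 with control 2 and 4. The members' median log2 fold change was then 0.87, with 9 of 10 fitted higher, and FOSB stood at 1.75 (SE 1.29). Those libraries' FOS levels were 477 and 98.9 CPM against 332 and 66.5 CPM, so the labels overlapped for FOS. They also overlapped for FOSB, JUN, EGR1, EGR3, ATF3 and NR4A1. They did not for FOSL1, at 30.5 and 19.1 against 8.59 and 1.98 CPM. JUNB, at 226 and 182 against 127 and 60.6 CPM, and IER2, at 87.3 and 43.1 against 36.7 and 17.7 CPM, did not overlap either. The edgeR adjusted p of FOSL1, JUNB and IER2 was 0.36, 0.367 and 0.378. The share of all genes that separated in these libraries was not counted. With so few libraries per label, separation by order alone is common, so nothing is read from it.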

How the data were processed

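RNA-seq was done on 8 libraries. The table as deposited gives whole-number read counts for each gene and no normalised values. STAR, Subread with featureCounts, and hg38 are named per the submitters' processing notes. Versions, annotation and the use of strand were not given in the sources used here. By label the molecule is polyA RNA, while their protocol describes rRNA depletion, so counts of transcripts without a polyA tail could be affected. The column headers call the treated libraries KO where the titles say KD; columns were matched by group and number. CPM values are counts per 1000000 of each column's total. Intervals on single values are exact Poisson at 95%, and a count of 0 allows up to 3 counts. Neither covers the spread between libraries.

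Knockdown was compared with control in R 4.3.3 with edgeR 4.0.16 (quasi-likelihood, TMM factors of 0.75 to 1.19, filterByExpr, Benjamini-Hochberg adjusted p under 0.05 over all genes kept), in 8 libraries and in 7 without control 3. The tests were checked on simulated data, in which, at the spread of these libraries, edgeR missed nearly all changes of a few fold. Alternatives were DESeq2 1.42.0, limma-voom 3.58.1, RLE factors, totals without TMM, other filters, a replicate block and leaving out each library; a fit without libraries over 1% muscle markers was added after seeing the data. Exon lengths and overlaps are from GENCODE v29, coordinates and promoters from RefSeq. Text names the members, the 3 genes of highest mean CPM per list where used, and the 8 genes most like the members in pattern. A few genes that this rule selects are not reported here. The members and lists were chosen with earlier results of these data known.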

Additional observations from a re-analysis of the deposited data

Results flagged for a closer look

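Within the control label, control 3 stood apart from the other 3 libraries by a gap above Dixon's critical share of the range for 9 of 10 members. Its levels were 3818 CPM for FOS, 3994 CPM for FOSB, 54.2 CPM for FOSL1, 926 CPM for JUN, 1697 CPM for EGR1, 54.0 CPM for EGR3, 532 CPM for ATF3, 157 CPM for IER2 and 467 CPM for NR4A1. JUNB, at 476 CPM, did not reach that gap. The members were chosen by this library, so these gaps are a description. Within the knockdown label, ATF3 in knockdown 4 stood apart at 42.1 CPM. In all, 20 groups of 4 values were examined. Chance flags about 1 in 20 only for independent, normally distributed values, and that rate was not checked for CPM of these genes. On the scale of log2(CPM + 1), 1 of these groups passed the gap, JUNB in the knockdown label, whose low library was knockdown 2 at 25.5 CPM, and 0 with control 3 or knockdown 4 as the library apart.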

How the results depend on the processing

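For 0 of 10 members was knockdown called against control in any alternative of either fit (DESeq2 gave no p-value for FOSB and ATF3 in 8 libraries, so 8 members could be called there), with edgeR adjusted p from 0.36 to 1 over the 7-library alternatives. Over all genes, DESeq2 called 127 genes in 8 libraries and 186 in 7 where edgeR called 0; leaving out each library in turn gave 0 to 1 called genes in 8 libraries, the 1 without knockdown 2. Of 160 alternative fold changes of the members in 7 libraries, 152 kept their direction and 8 turned. EGR3 went from -0.03 to 0.009 with a mean CPM of at least 1 as the filter, to 0.245 without the libraries over 1% muscle markers and from -0.52 to 0.31 with single libraries left out. NR4A1 went from 0.47 to -0.051 without the muscle marker libraries and from -0.58 (without knockdown 2) to 2.08 (without control 1). The median log2 ratio of control 3 was 5.01 against the median of the other 3 controls, 2.11 against the highest of the other 7 libraries and 3.60 to 4.92 with single controls left out. In the 8-library fit the members' median was 0.18 in limma-voom, with 6 fitted higher. With the replicate block the median was 0.54 in 8 libraries (7 fitted higher) and 1.66 in 7, with 0 members called. With the mean of each label subtracted from log2(CPM + 1), same-numbered libraries correlated at -0.69 to -0.36. These values show no likeness by number, which cannot exclude that same-numbered libraries were handled together. Without subtracting the means, the Pearson r of same-numbered libraries ran from 0.736 to 0.861. Scaling by totals moved the median of all genes in 8 libraries from -0.05 to -0.21. Causes of these shifts were not tested. FOSL1 had 0 counts in knockdown 2, which allow a level of up to 0.0978 CPM there.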

Other observations

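Genes outside the list that followed the members' pattern most closely over the 8 libraries, by Pearson r of log2(CPM + 1) with the members' mean z-score, were PPP1R15A (0.98), CWC25 (0.97), MIR23AHG (0.97), ZFP36L2 (0.96), SMG1 (0.96), TRAF3IP3 (0.96), HCAR3 (0.95) and NXF1 (0.95), among 13789 candidates. These are descriptions over 8 points that share library and depth, and control 3 weighs on each. PPP1R15A, which restarts translation after stress, stood at 327 CPM in control 3 and from 21.4 to 96.2 CPM elsewhere. MIR23AHG, the host transcript of a miRNA cluster, stood at 337 CPM in control 3 and from 13.9 to 63.0 CPM elsewhere. CWC25, a splicing factor, moved less, with 25.9 CPM in control 3 and from 8.81 to 16.6 CPM elsewhere.

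Over the 7 libraries without control 3 the 8 closest were RTKN2 (0.99), HCAR3 (0.98), MUC21 (0.97), EMP1 (0.97), PDLIM2 (0.97), MAL (0.97), ZNF431 (0.97) and NXF1 (0.96), of which 2 (HCAR3 and NXF1) were also among the 8 above. MUC21, MAL and EMP1 are known from differentiated layers of oral and oesophageal squamous epithelium. MUC21 stood at 1152 CPM in knockdown 4, 104 CPM in knockdown 1, 54.1 CPM in control 2 and 79.3 CPM in control 3. In the other 4 libraries it stood between 0.0385 and 6.25 CPM. EMP1 stood at 4809 CPM in knockdown 4, 931 CPM in control 3, 884 CPM in knockdown 1 and 539 CPM in control 2, and between 49.5 and 196 CPM elsewhere. HCAR3, a hydroxycarboxylic acid receptor, stood at 44.7 CPM in control 3, 20.7 CPM in knockdown 4 and 17.8 CPM in knockdown 1, and at 0.381 CPM in control 1. NXF1, the mRNA export receptor, stood at 118 CPM in control 3 and from 44.8 to 86.6 CPM elsewhere.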
